A study of Mus musculus with 6 samples.

Results

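Protein kinase A (PKA) is encoded by a small family of genes, and 9 of them were followed in quadriceps muscle of control and miDrp1KO mice. They were the catalytic subunits Prkaca and Prkacb, the type I regulatory subunits Prkar1a and Prkar1b, the type II regulatory subunits Prkar2a and Prkar2b, and the PKA inhibitors Pkia, Pkib and Pkig, taken by gene symbol from the 27179 genes of the count files. All 9 were among the 16483 genes with enough reads to be tested. RNA was sequenced from 3 control mice (libraries B, C and D) and 3 miDrp1KO mice (libraries A, E and F). The miDrp1KO mice carried floxed alleles of Dnm1l, which encodes the mitochondrial fission GTPase Drp1, together with a tamoxifen-inducible Cre recombinase driven by the human skeletal actin promoter, which is active in muscle fibres. Control mice are labelled as floxed (the methods give flox/+ or flox/flox) and had no Cre, so the presence of Cre and the loss of Dnm1l cannot be told apart. Both groups were on a C57BL/6J background and were given tamoxifen at 3 months of age, and the study places this RNA-seq at 3 weeks after deletion. The methods give normal chow or a high-fat diet and do not name the diet of these mice.

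In the resting enzyme a pair of regulatory subunits holds a pair of catalytic subunits inactive. Cyclic AMP, made by adenylyl cyclases downstream of Gs-coupled receptors, binds the regulatory subunits and frees the catalytic ones. Type I holoenzyme is largely soluble, whereas type II holoenzyme is mostly held at membranes and cytoskeleton by A-kinase anchoring proteins, and the PKA inhibitors bind free catalytic subunit as pseudosubstrates and carry it out of the nucleus. In skeletal muscle the pathway is known for the stimulation of glycogen breakdown and calcium handling by adrenaline. The comparison asked which of these parts differed in transcript level after loss of Drp1, and whether the balance of type I and type II regulatory subunits differed with it.

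The members with the lowest p in edgeR were both type II regulatory subunits and the catalytic subunit Prkaca, so the sequences just upstream of their RefSeq start sites (GRCm38.p6) are given 5′ to 3′, with 130 bases each, beside the Prkar1a site described next. The 250 bases before every RefSeq start were searched on both strands for the cyclic AMP response element TGACGTCA and for its short form TGACG, or the reverse complement of those letters, which the full element contains. Capitals mark these letters. The Prkaca stretch lies at chr8:83972848-83972977 (plus strand), the Prkar2a stretch at chr9:108692013-108692142 (plus strand) and the Prkar2b stretch at chr12:32061297-32061426 (minus strand, ending 19 bases before the start, where a GENCODE exon of the gene begins). For Prkar1a only the 30 bases around the full element are given, at chr11:109650889-109650918 (plus strand).
Prkaca: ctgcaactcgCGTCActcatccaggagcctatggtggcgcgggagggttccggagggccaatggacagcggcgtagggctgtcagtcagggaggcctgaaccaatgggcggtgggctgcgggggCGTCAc
Prkar2a: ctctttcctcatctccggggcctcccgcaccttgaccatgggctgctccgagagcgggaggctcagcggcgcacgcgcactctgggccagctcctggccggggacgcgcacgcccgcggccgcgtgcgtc
Prkar2b: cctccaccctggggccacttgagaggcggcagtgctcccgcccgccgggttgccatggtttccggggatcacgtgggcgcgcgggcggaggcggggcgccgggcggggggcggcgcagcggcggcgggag
Prkar1a: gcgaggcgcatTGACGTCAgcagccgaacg

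RefSeq gave 24 such windows for 8 of the members. The full element was found in 1 of them, a Prkar1a window, where it began 49 bases before the start at position 109650949. It was present in 1.55% of the 32851 windows of all mouse genes. The short form was found in a window of 5 members (Prkaca, Prkacb, Prkar1a, Prkar1b and Pkig), and 19.8% of 27025 genes had it in at least 1 window. Prkar1a has 6 windows and Prkar2a 1, so members did not have an equal chance of a match. The windows of Prkar2a, Prkar2b and Pkib did not hold these letters before the start, although in Prkar2a the short form lay across the start, from 4 bases before it. These matches are a description of the sequence only.

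The libraries held 13989588 to 62042255 counts. Library E held 28829756, but its size after scaling for composition (TMM), which sets the levels below, was 4.08e+07. Dnm1l, the deleted gene, was at 156, 114 and 140 CPM (counts scaled to an equal library size) in controls B, C and D and at 70.6, 81.3 and 66.2 CPM in miDrp1KO A, E and F, with no overlap between the groups (log2 fold change −0.91, SE 0.18, edgeR adjusted p = 0.362). Across all genes 2 passed the adjusted threshold of 0.05 (0.0121%), and the median log2 fold change was 0.02. Ribosomal RNA genes took 3.36% to 15.6% of the counts in controls and 1.48% to 24.4% in miDrp1KO. Markers of skeletal muscle fibres (13 genes, none of them at 0) were abundant in every library, but their summed level was 278009 to 326726 CPM in controls and 133449 to 254409 CPM in miDrp1KO. Fewer fibres and less RNA per fibre cannot be told apart in such bulk tissue.

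None of the 9 members passed the adjusted threshold in edgeR. At an unadjusted p under 0.05, 3 were lower in miDrp1KO (Prkaca, Prkar2a and Prkar2b) and 0 were higher. Of all tested genes 10.9% had such a p, 6.22% with a lower and 4.68% with a higher level. The groups did not overlap for 4 members, all of them lower in miDrp1KO (the same 3 and Prkacb). Among all tested genes 18% did not overlap, 10.3% lower and 7.67% higher. In all, 5 members had a lower and 4 a higher level in miDrp1KO, and their median log2 fold change was −0.19. A permutation test of 3 against 3 libraries cannot give less than p = 0.1. The plot of member levels shows each library.

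**Figure D1:**
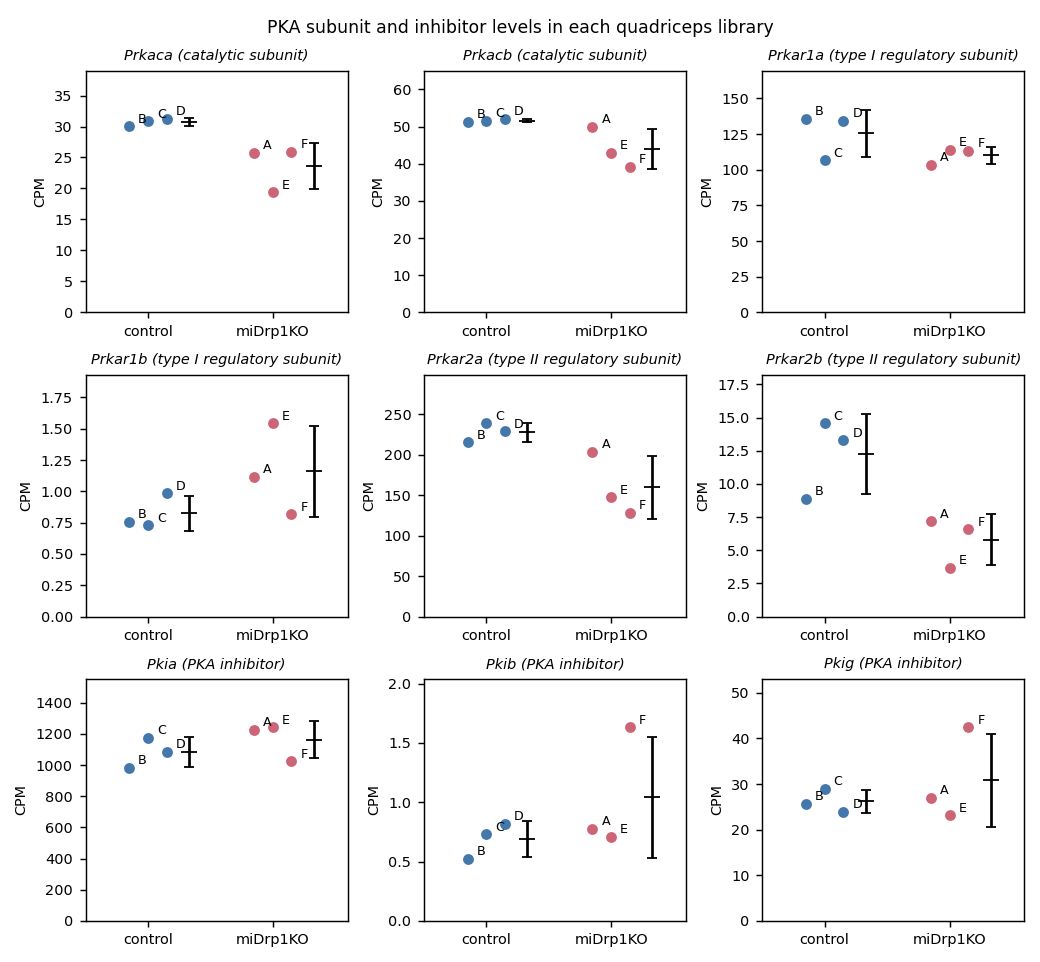
Level of each PKA subunit and inhibitor (CPM, linear axes from 0, a different scale in each panel) in control libraries B, C and D (blue) and miDrp1KO libraries A, E and F (red), with the group mean and SD in black (n = 3). The groups are apart for Prkaca, Prkacb, Prkar2a and Prkar2b and overlap for the other 5 genes.

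To set genes side by side, CPM were divided by the length of the gene's merged exons. In controls the inhibitor Pkia had by far the highest level, at 295 ± 26.4 CPM per kilobase (SD, n = 3). It was followed by Prkar2a at 45.8 ± 2.39, Prkar1a at 30.8 ± 4.03 and Pkig at 18.4 ± 1.82 CPM per kilobase. The catalytic subunits came next, Prkaca at 12.3 ± 0.245 and Prkacb at 9.91 ± 0.0773 CPM per kilobase. At the low end were Prkar2b at 3.35 ± 0.822, Prkar1b at 0.285 ± 0.0481 and Pkib at 0.113 ± 0.0250 CPM per kilobase. The order of the means was the same in miDrp1KO, but there the neighbours Prkar2a (32.1 ± 7.86) and Prkar1a (27.0 ± 1.45), Prkar1a and Pkig (21.6 ± 7.16), and likewise Prkaca (9.51 ± 1.497) and Prkacb (8.44 ± 1.04), did not differ beyond their spread. Transcripts of the inhibitors outnumbered those of the catalytic subunits per length in all 6 libraries.

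Among the catalytic subunits, which carry the kinase activity, Prkaca (the ubiquitous Cα, chromosome 8, 83972993 to 83996443) was at 30.02, 30.8 and 31.2 CPM in controls and at 25.7, 19.4 and 25.9 CPM in miDrp1KO. All miDrp1KO libraries lay under all controls, and library E, whose level depends most on the scaling, was the lowest. The groups also stayed apart with RLE and with upper quartile normalization. The mean was 77.1% of control, with a log2 fold change of −0.38 (SE 0.16, 95% interval −0.73 to −0.02, edgeR p = 0.0399, adjusted p = 0.436, exact permutation p = 0.1, two-sided). The unadjusted p was under 0.05 in 5 of the 14 alternative fits, and the log2 fold change was −0.25 without library E. Prkacb (Cβ, chromosome 3, 146729574 to 146812990) was at 51.2, 51.6 and 52.0 CPM in controls and at 49.9, 42.9 and 39.2 CPM in miDrp1KO. The groups did not overlap, but library A was close to the lowest control. Its log2 fold change was −0.23 (SE 0.16, 95% interval −0.57 to 0.11, edgeR adjusted p = 0.609), and −0.14 without library F. Within the catalytic pair, Prkaca made up 55.1, 55.6 and 55.7% of the level per kilobase in controls and 51.9, 48.6 and 58.1% in miDrp1KO, with the control shares inside the miDrp1KO range. A processed pseudogene, Prkaca-ps1, is annotated on the X chromosome, and how reads on near-identical copies were counted is not given in the sources used here.

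The type I regulatory subunits did not separate the groups. Prkar1a (RIα, present in all tissues, chromosome 11, 109649405 to 109669656) was at 136, 107 and 134 CPM in controls and at 103, 114 and 113 CPM in miDrp1KO. Control C lay within the miDrp1KO range, and the log2 fold change was −0.19 (SE 0.17, 95% interval −0.57 to 0.19, edgeR adjusted p = 0.716). It was −0.32 without library C, and −0.11 without B, −0.12 without A and −0.12 without D. Prkar1b (RIβ, best known from brain, chromosome 5, 139017306 to 139150001) rested on 16, 10 and 59 counts in controls and 23, 63 and 17 in miDrp1KO. Its level was 0.758, 0.729 and 0.983 CPM in controls and 1.118, 1.54 and 0.816 CPM in miDrp1KO, where library F lay inside the control range. The log2 fold change of 0.48 (SE 0.40, 95% interval −0.40 to 1.37, edgeR adjusted p = 0.689) had the widest interval but for Pkib, and it was 0.20 without library E.

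Both type II regulatory subunits had lower levels in all 3 miDrp1KO libraries than in any control. Prkar2a (RIIα, the main anchored form of muscle, chromosome 9, 108689314 to 108750436), whose upstream sequence is given above, was at 215, 239 and 229 CPM in controls and at 203, 147 and 128 CPM in miDrp1KO. Library A was close to the controls and libraries E and F were well under them. The mean was 70.1% of control, with a log2 fold change of −0.51 (SE 0.21, 95% interval −0.97 to −0.06, edgeR p = 0.0296, adjusted p = 0.416, exact permutation p = 0.1, two-sided). The unadjusted p did not stay under 0.05 without library C, D, E or F, or when the share of ribosomal RNA was fitted as a covariate.

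Prkar2b (RIIβ, abundant in fat and brain, chromosome 12, 31958476 to 32061296) had the largest difference of the 9. It was at 8.85, 14.6 and 13.3 CPM in controls and at 7.19, 3.65 and 6.57 CPM in miDrp1KO, from 137 to 798 counts a library. The lowest control, B, lay just above the highest miDrp1KO library, A. The mean of 5.81 ± 1.89 CPM in miDrp1KO was 47.4% of the 12.2 ± 3.002 CPM in controls (SD, n = 3). The log2 fold change was −1.09 (SE 0.28, 95% interval −1.71 to −0.47). By edgeR the p was 0.00281 and the adjusted p 0.362, with an exact two-sided permutation p of 0.1, and Prkar2b ranked 121 of all tested genes by p. Its unadjusted p was under 0.05 in each of the 14 alternative fits, and its log2 fold change ran from −1.32 to −0.83 over them.

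**Figure D2:**
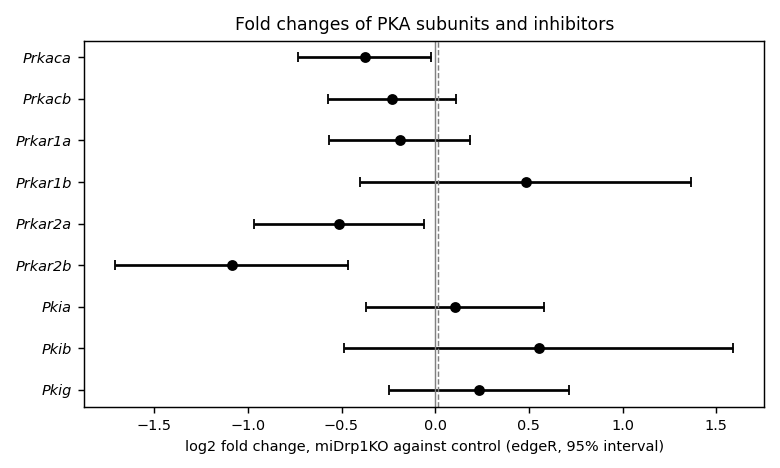
Log2 fold change of each member in miDrp1KO against control (points) with its 95% interval from edgeR (bars), where the solid line marks 0 and the dashed line the median of all tested genes. The intervals of Prkaca, Prkar2a and Prkar2b lie below 0 and those of the other 6 members include 0.

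The PKA inhibitors had higher mean levels in miDrp1KO, with groups that overlapped for each of them. Pkia (PKIα, the main form of muscle, chromosome 3, 7366669 to 7445366) was at 984, 1177 and 1085 CPM in controls and at 1225, 1242 and 1025 CPM in miDrp1KO. Libraries A and E were above all controls and library F was inside the control range. The log2 fold change was 0.11 (SE 0.22, 95% interval −0.37 to 0.58, edgeR adjusted p = 0.889), and ran from 0.056 without library E and 0.061 without B to 0.21 without F. Pkig (PKIγ, chromosome 2, 163658386 to 163726158) was at 25.7, 29.0 and 23.9 CPM in controls and at 27.0, 23.1 and 42.4 CPM in miDrp1KO. The higher mean rested on library F, without which the log2 fold change was −0.043 against 0.24 with it (SE 0.22, edgeR adjusted p = 0.724). With all libraries, the log2 fold change of Pkig was 0.036 when the share of ribosomal RNA was fitted as a covariate. Pkib (PKIβ, chromosome 10, 57631981 to 57741112) was near the limit of detection, with 11, 10 and 49 counts in controls and 16, 29 and 34 in miDrp1KO, and its log2 fold change of 0.55 (SE 0.47, edgeR adjusted p = 0.699) was 0.11 without library F.

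The balance of regulatory subunits was compared as a ratio within each library, which does not depend on library size. The type I to type II ratio per kilobase was 0.734, 0.508 and 0.671 in controls and 0.601, 0.930 and 1.02 in miDrp1KO. Libraries E and F were above all controls, whereas library A was inside the control range, so the groups overlapped. The means were 0.638 ± 0.117 and 0.849 ± 0.220 (SD, n = 3), a log2 difference of 0.39 (SE 0.28) against a pooled SD of 0.35. From counts not divided by length the log2 difference was 0.38, and it was 0.62 without library A and 0.23 without library C or F. In shares of the regulatory level per kilobase, type I took 38.7 ± 4.50% in controls and 45.4 ± 6.90% in miDrp1KO.

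Prkar1a and Prkar2a together carried nearly all of this balance. Prkar2a took 54.6, 61.2 and 55.5% of the regulatory level per kilobase in controls and 59.6, 50.1 and 46.3% in miDrp1KO. Prkar2b took 3.06, 5.08 and 4.38% in controls and 2.87, 1.69 and 3.24% in miDrp1KO, with library F inside the control range. Prkar2a transcripts were thus ahead of Prkar1a in all controls (ratios per kilobase of 1.30, 1.84 and 1.39) and in miDrp1KO A and E (1.61 and 1.06), and behind it in library F (0.928). Prkar1b took 0.330, 0.321 and 0.409% in controls and 0.564, 0.903 and 0.507% in miDrp1KO, where the groups did not overlap but rested on as few as 10 counts. Within type II, the Prkar2b to Prkar2a count ratio was 0.0412, 0.0611 and 0.0581 in controls and 0.0354, 0.0248 and 0.0514 in miDrp1KO, and the groups overlapped.

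**Figure D3:**
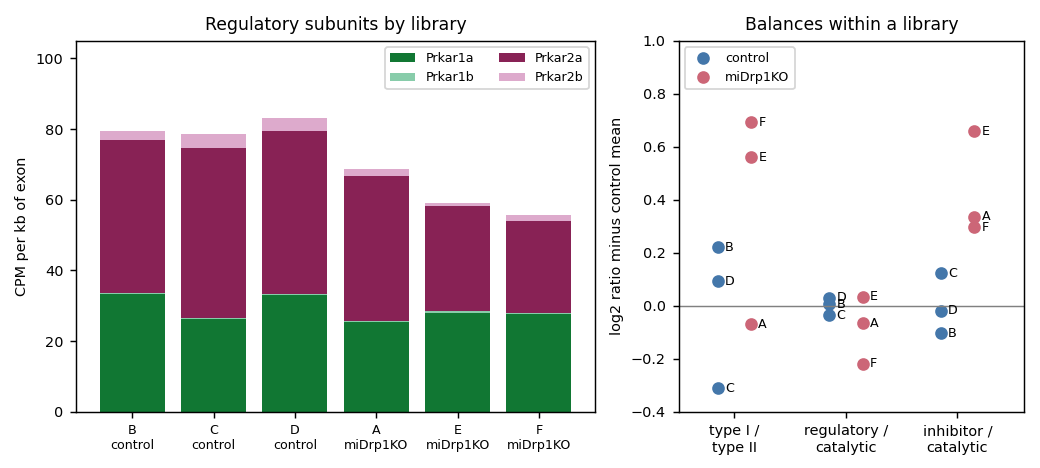
Left, level of the 4 regulatory subunits in each library (CPM per kilobase of exon, stacked bars from 0). Right, log2 ratios per kilobase of type I to type II, regulatory to catalytic and inhibitor to catalytic transcripts in each library, minus the control mean (points lettered by library). The type II part of the bars is smallest in libraries E and F, and of the ratios only inhibitor to catalytic separates the groups.

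The inhibitors were compared with the catalytic subunits that they bind. Their summed level per kilobase was 13.1, 15.3 and 13.9 times that of the catalytic subunits in controls and 17.7, 22.2 and 17.3 times in miDrp1KO. All miDrp1KO libraries were above all controls, with means of 14.1 ± 1.13 and 19.1 ± 2.71 (SD, n = 3) and a log2 difference of 0.43 (SE 0.13). Pkia made up 90.3% to 95.4% of the inhibitor level, so this ratio is largely Pkia over Prkaca and Prkacb. The regulatory to catalytic ratio was 3.62, 3.52 and 3.69 per kilobase in controls and 3.45, 3.70 and 3.10 in miDrp1KO, and overlapped. On counts not divided by length it was 4.43, 4.38 and 4.54 in controls and 4.16, 4.28 and 3.82 in miDrp1KO, without overlap, so the separation depended on the length scale. The ratio of Pkia to Prkar2a per kilobase, the members with the highest levels, was 6.19, 6.67 and 6.42 in controls. In miDrp1KO it was 8.17, 11.4 and 10.8, again without overlap. All other pairs of single members compared per kilobase overlapped between the groups. The share of all gene pairs without overlap is not given.

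Summed markers of skeletal fibres and adipocytes were lower in miDrp1KO without overlap, and the sums of the other cell types overlapped. The summed skeletal fibre markers were 307004, 278009 and 326726 CPM in controls and 254409, 152217 and 133449 CPM in miDrp1KO. Of the 13 genes 12 were lower, 2 of them at an unadjusted p under 0.05. Libraries E and F, the lowest in this sum, were also the lowest in Prkar2a. Ttn and Myh4 had the highest levels in the sum (means of 122651 and 57018 CPM in controls, 65649 and 23265 CPM in miDrp1KO). For Ckm, Mylpf, Myl1 and Pvalb, library F lay inside the control range. Relative to this sum, a scale chosen after seeing the data, Prkar2a was higher in miDrp1KO by 0.27 on the log2 scale and Prkaca by 0.42, whereas the log2 difference of Prkar2b was −0.29, and the groups overlapped for these 3 genes and Prkar1a on this scale. Prkacb (0.57), Prkar1b (1.27), Pkia (0.91), Pkib (1.32) and Pkig (1.002) were higher without overlap on it. The sum was lower in miDrp1KO, so the scale moves all genes upward alike. The share of all tested genes without overlap on it is not given, so these values are no result about the members. The part of the fibre markers in the result was not tested.

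The 12 adipocyte markers summed to 554, 802 and 665 CPM in controls and to 398, 371 and 501 CPM in miDrp1KO, without overlap. Of these 10 were lower, 5 of them at an unadjusted p under 0.05, and none was at 0 in all libraries. Adipoq, the adipocyte hormone adiponectin, was at 23.9, 52.9 and 40.0 CPM in controls and at 17.5, 9.78 and 21.1 CPM in miDrp1KO. Per 1000 counts of these markers, Prkar2b was at 16.0, 18.2 and 19.997 in controls and at 18.1, 9.85 and 13.1 in miDrp1KO, where the groups overlapped. The part of fat in the Prkar2b result was not tested.

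The 8 slow fibre markers summed to 446, 54.2 and 87.3 CPM in controls and to 82.0, 728 and 647 CPM in miDrp1KO. All 8 had a higher mean in miDrp1KO (median log2 fold change 1.46), none at an unadjusted p under 0.05, and control B was above miDrp1KO A. Libraries stood in nearly the same order by this sum as by the type I to type II ratio, from C through A, D and B to E and F, of which only the last pair changed places. The part of slow fibres in that ratio was not tested. The neuron markers, of a cell type known for Prkar1b and Prkar2b, summed to 3.55 to 7.53 CPM and the Schwann cell markers to 50.6 to 94.9 CPM over the 6 libraries, and the groups overlapped. The summed markers of endothelium, macrophages, fibroblasts, smooth muscle and erythroid cells overlapped as well. Among single markers, 5 of 8 macrophage genes had a higher level in miDrp1KO, 2 of them at an unadjusted p under 0.05. The same was so for 7 of 8 fibroblast and 9 of 10 Schwann cell genes, none of them at that p. The 4 neuron genes tested (of 6) all had a higher level (median log2 fold change 0.33), as did 3 of 4 erythroid genes, none at that p. Lower levels were found for 7 of 8 endothelial and 5 of 6 smooth muscle genes, again none at that p. The part of these cells in the members' levels was not tested.

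**Figure D4:**
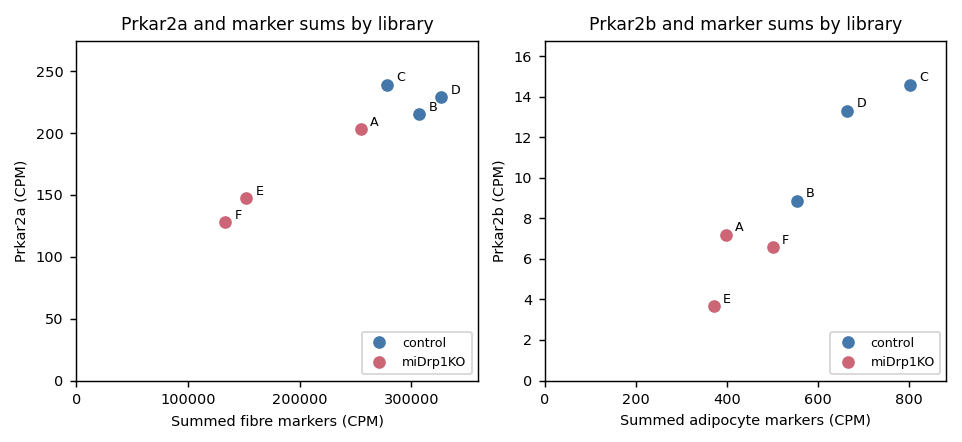
Left, Prkar2a against the summed skeletal fibre markers, and right, Prkar2b against the summed adipocyte markers (all in CPM, axes from 0), for control (blue) and miDrp1KO (red) libraries lettered B, C, D and A, E, F. Each miDrp1KO library is lower than each control on both axes of both panels.

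The tested genes whose pattern over the 6 libraries was most like that of Prkar2b were found by the root mean square difference of log2 CPM after centring each gene, among 13446 genes with a mean of at least 1 CPM. They were Acvr1c, a receptor of the activin family (difference 0.143, log2 fold change −0.92), Plin1, the lipid droplet coat protein perilipin (0.144, −1.17), and Slc1a3, a glutamate transporter (0.147, −0.83). Actn3, the α-actinin of fast fibres (0.166, −0.95), and Sncg, a synuclein (0.169, −1.20), came next. Plin1 is in the adipocyte list and Actn3 in the fibre list.

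The rest of the cyclic AMP pathway was read from 6 lists with 99 tested genes. Of these 68 had a lower and 31 a higher level in miDrp1KO, and the median was −0.10 on the log2 scale, while 48% of all tested genes were lower. None passed the adjusted threshold in edgeR, and 20 were lower and 2 higher at an unadjusted p under 0.05. Of all tested genes, 6.22% were lower and 4.68% higher at that p. Upstream of PKA, 11 of 16 receptors, G proteins and cyclases were lower, 4 of them at that p, and none of the 5 higher genes was at that p. Gnas, the stimulatory Gs subunit that drives adenylyl cyclase, was at 636, 625 and 684 CPM in controls and at 464, 364 and 486 CPM in miDrp1KO, without overlap (log2 fold change −0.56, edgeR adjusted p = 0.392). The cyclase Adcy2 was at 44.8, 41.4 and 39.5 CPM and at 28.7, 21.6 and 19.3 CPM (−0.85, adjusted p = 0.362). The inhibitory G protein subunit Gnai1 had a log2 fold change of −0.81 (adjusted p = 0.362). Its mean level was low, at 6.92 CPM in controls and 3.93 CPM in miDrp1KO.

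Of the 16 phosphodiesterases, which break down cyclic AMP, 11 were lower, 2 of them at an unadjusted p under 0.05. Their leading genes were Pde3b (log2 fold change −0.78, edgeR adjusted p = 0.382), the insulin-regulated form of fat and liver, then Pde2a (−0.46, adjusted p = 0.416) and Pde7b (−0.30, adjusted p = 0.523). Of 22 anchoring proteins, which tether type II holoenzyme in particular, 16 were lower, 3 of them at that p. Synm, the intermediate filament protein synemin, was at 1408, 1597 and 1639 CPM in controls and at 1131, 785 and 411 CPM in miDrp1KO (−0.997, adjusted p = 0.382), with library F the lowest as for Prkar2a. Pde4dip, the anchoring protein myomegalin (−1.06, adjusted p = 0.392), and Ldb3, the Z-disc protein cypher (−0.53, adjusted p = 0.417), were also lower without overlap. These proteins belong to the fibre itself, and their part alongside the fibre markers was not tested.

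Of 10 other effectors and PKA-related proteins 7 were lower, 1 of them at an unadjusted p under 0.05. Of the 3 higher genes, 1 was at that p as well. Pja2, a ubiquitin ligase that degrades regulatory subunits, had a log2 fold change of −0.44 (edgeR adjusted p = 0.449) and Bves, a cyclic AMP-binding Popeye protein, of −0.36 (adjusted p = 0.485). In the CREB family and its targets 12 of 17 genes were lower, 1 at that p. That gene was Pck1, a gluconeogenic enzyme also made in fat (−1.45, adjusted p = 0.393), whereas the coactivator Crtc3 (−0.38, adjusted p = 0.498) and the nuclear receptor Nr4a2 (−0.83, adjusted p = 0.467) did not reach it.

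Muscle substrates of PKA had the lowest median of the 6 lists, −0.58, with 11 of 18 lower. The 13 skeletal fibre markers had a similar median of −0.55. At an unadjusted p under 0.05, 9 substrates were lower and 1 higher. Among the 9 was the deleted gene Dnm1l itself, whose product PKA phosphorylates. Plin1, which is also in the adipocyte list, was among the 9 as well. Ryr1, the calcium release channel, was at 2535, 2346 and 2216 CPM in controls and at 1475, 967 and 414 CPM in miDrp1KO (−1.31, edgeR adjusted p = 0.379). Lipe, hormone-sensitive lipase, had a log2 fold change of −0.70 (adjusted p = 0.370). As in Prkar2a, library F was the lowest for Ryr1. It was also the lowest in the summed fibre markers, though not in each of them (Ckm was lower in library E).

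**Figure D5:**
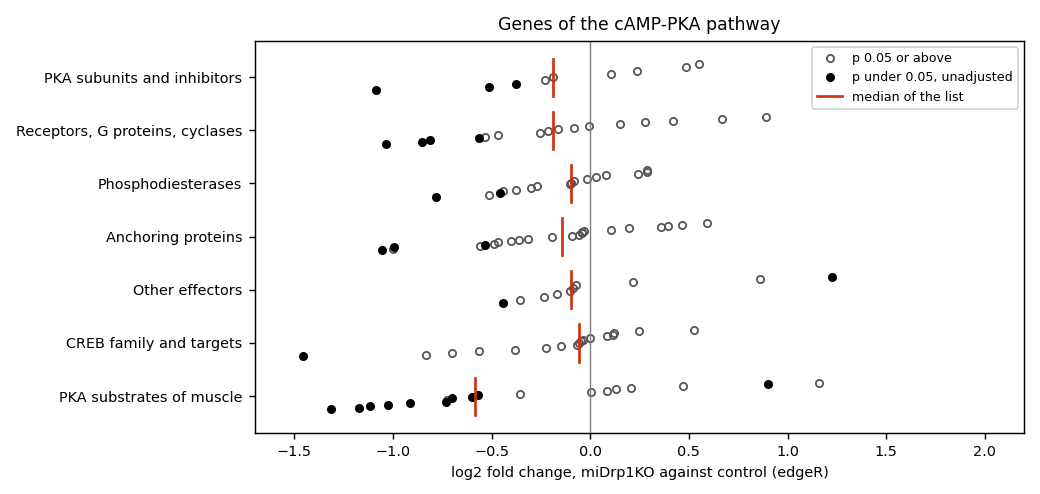
Log2 fold change in miDrp1KO against control (horizontal axis, edgeR) of each tested gene in the 9-gene PKA family and in 6 lists of the pathway (vertical axis), with filled points for an unadjusted p under 0.05 and red bars for list medians. The medians lie between −0.58 and −0.06, and the PKA family has a median of −0.19.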

How the data were processed

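RNA-seq of quadriceps muscle from 3 control and 3 miDrp1KO mice was used, 1 library per mouse, grouped by the genotype given in the labels. The authors made stranded total RNA libraries after ribosomal RNA depletion, sequenced them in pools (which library was in which pool is not given in the sources used here), checked reads with FastQC and counted reads on GRCm38 with Rsubread. They deposited raw counts per gene, without normalization, for 27179 genes. The strand setting of the counting and the handling of shared reads are not given in the sources used here. The annotated exons of the 9 members share no bases with those of overlapping genes. The submitters' processing notes also name DESeq2 1.30.0.

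Counts were fitted here with the robust quasi-likelihood method of edgeR 4.0.16 (R 4.3.3), with genotype as the only term, TMM library sizes and the filterByExpr filter on genotype. P-values were adjusted by the Benjamini-Hochberg method over all 16483 genes that passed the filter, with a threshold of 0.05. The biological coefficient of variation was 0.252. CPM used the TMM library sizes. Levels per kilobase used the merged exons of the GENCODE annotation on GRCm38. Exact permutation p-values of single genes are two-sided and come from all 20 ways to assign 3 of the 6 mice to a group. Ratios, sums and list counts are given without a test. The alternatives were DESeq2 1.42.0, limma 3.58.1 (voom), normalization by RLE or by the upper quartile, no filter, at least 10 counts in every library, the summed share of 37 ribosomal RNA genes as a covariate, these genes and Lars2 left out, 6 fits without 1 library each, and an unadjusted threshold. The fit was tested on simulated data.

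The members and gene lists were chosen with earlier results of these data known. Genes named beside the members were the deleted gene, up to 3 genes per pathway list with the lowest p and a mean of at least 1 CPM, and the 5 genes nearest to Prkar2b. Marker genes are given as sums and counts, with Adipoq as the leading gene of its list. From the fibre list, Ttn, Myh4, Ckm, Mylpf, Myl1 and Pvalb are also named, outside this rule. Promoter windows are from RefSeq, in which 8 of the 9 members matched, and Pkia did not. A gene that the rule on pathway lists names is not reported here.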

Additional observations from a re-analysis of the deposited data

How the results depend on the processing

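In each of the 14 alternative fits 0 of the 9 members passed the adjusted threshold. At an unadjusted p the edgeR fit of all 6 libraries held 3 members, and the alternative fits held 1 to 3. DESeq2 called 94 of the 4018 genes to which it gave an adjusted p, against 2 of 16483 in edgeR, so these counts come from unlike sets of genes. It gave no adjusted p to Prkar1b, Prkar2b or Pkib. Without filtering on low counts 8 genes were called, without library A 7, without library B 3, and without library E or F, or with ribosomal RNA share fitted as a covariate, 1. Upper quartile normalization moved the median of all genes to 0.11, and 3 members then did not overlap. Prkar2b kept its direction in all 14 fits, with adjusted p between 0.102 and 0.877. Prkar2a kept its direction as well, with log2 fold changes of −0.70 without library A and −0.36 without library F. Among the members 1 changed direction, Pkig, which ran from −0.043 to 0.41 in the fits that left out 1 library. Relative to the summed fibre markers, a scale chosen after seeing the data, 4 members turned to a higher level in miDrp1KO. They were Prkaca (0.42), Prkacb (0.57), Prkar1a (0.63) and Prkar2a (0.27), and the cause was not tested. The sum was lower in miDrp1KO, so this scale moves all genes upward alike, and the turn is no result about the members. Ttn (log2 fold change −0.90) and Myh4 (−1.29) had the highest levels in the sum, whereas Mylpf (−0.03) and Pvalb (0.03) hardly moved. No paired analysis was possible because the labels used here give the genotype and no pairing of mice. Prkar1b and Pkib rest on as few as 10 counts in a library, so only large differences were detectable at this depth.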
